A study of Mus musculus with 12 samples.

Results

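Genes of aldosterone-sensitive sodium transport were followed in embryonic mouse kidneys by a fixed list of 9 genes. A response to aldosterone itself was not measured. The listed genes take part in sodium transport or in its hormone signal. The 9 genes are the epithelial sodium channel subunits Scnn1a, Scnn1b and Scnn1g, the sodium pump genes Atp1b1, Fxyd2 and Fxyd4, and the hormone signal genes Nr3c2, Hsd11b2 and Sgk1. All probes annotated to them were taken, 14 of the 45281 on the array. A probe was used when its detection p, which compares it with negative control beads, fell below 0.05 on 3 or more of the 12 arrays. This kept 12 probes of 8 genes, among 21526 kept probes with 11616 named genes in all. Nr3c2 was the gene without a usable probe.

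The kidneys came from CD-1 mouse embryos that were either wild type (WT) or homozygous for a Pkd1 null allele (Pkd1-/-, mutant), at embryonic day 14.5 (E14.5) or 17.5 (E17.5). Pkd1 encodes polycystin-1, and its loss gives cystic kidneys. Each of the 4 groups holds 3 arrays, and each array carries total RNA of 1 pair of whole kidneys. The mutants lack Pkd1 in every cell, so no cell type is singled out. WT and mutant embryos are described as littermates, but no array is tied to a litter, so groups were compared unpaired. The replicates are 34, 57 and 58 (E14.5 WT), 35, 59 and 65 (E14.5 mutant), 2, 38 and 41 (E17.5 WT) and 12, 40 and 42 (E17.5 mutant), and array values are given in these orders. Values are log2 intensities after background correction and quantile normalization, and differences are log2 fold changes with their standard error (SE). Adjusted p-values are from limma with Benjamini-Hochberg adjustment over all kept probes, called under 0.05. They set each difference against the spread between these arrays.

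Aldosterone is the adrenal steroid that makes the distal nephron and collecting duct retain sodium. It binds the mineralocorticoid receptor, which Nr3c2 encodes, and Hsd11b2 protects that receptor by turning active glucocorticoid into an inactive form in the same cells. Among the genes the receptor induces is the kinase Sgk1, which restrains the ubiquitin ligase Nedd4l and so keeps the channel at the apical membrane. Sodium enters through the channel, built of alpha, beta and gamma subunits, and leaves on the other side of the cell through the Na,K-ATPase. Atp1b1 is the beta subunit of that pump, and Fxyd2 and Fxyd4 are small proteins that tune it.

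RefSeq start site windows (build GRCm38.p6, 300 bases around a start) were at hand for 6 of the 9 genes, in 11 windows of which 6 belong to Sgk1. Sgk1 is shown because it is the classical steroid-induced gene of the group, and 1 of its windows holds a complete glucocorticoid response element, the palindrome that this receptor and the mineralocorticoid receptor share. In the window chr10:21993640-21993939, on the plus strand, the capitals mark that element, at bases 62 to 76.

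Sgk1: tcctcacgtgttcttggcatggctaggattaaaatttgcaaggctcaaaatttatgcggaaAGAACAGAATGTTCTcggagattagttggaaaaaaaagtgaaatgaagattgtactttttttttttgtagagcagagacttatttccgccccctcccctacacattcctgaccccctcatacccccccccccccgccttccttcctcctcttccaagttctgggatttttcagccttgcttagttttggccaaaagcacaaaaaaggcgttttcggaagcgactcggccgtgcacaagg

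The letters searched were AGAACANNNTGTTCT, which reads the same on both strands, and 3 of 32851 windows (0.00913%) of all genes held them. A single arm of the palindrome, AGAACA, read on both strands and counted also inside the full element, was in 3 of the 11 windows, all of Sgk1, and in 19% of all windows. Scnn1g and Scnn1b are shown because they lie side by side on chromosome 7, with only the non-coding gene Gm36848 between them. Both rose with age, as nearly all the measured genes of the list did. Both windows are on the plus strand, chr7:121734229-121734528 for Scnn1g and chr7:121864788-121865087 for Scnn1b, with GC boxes (GGGCGG, on either strand) in capitals.

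Scnn1g: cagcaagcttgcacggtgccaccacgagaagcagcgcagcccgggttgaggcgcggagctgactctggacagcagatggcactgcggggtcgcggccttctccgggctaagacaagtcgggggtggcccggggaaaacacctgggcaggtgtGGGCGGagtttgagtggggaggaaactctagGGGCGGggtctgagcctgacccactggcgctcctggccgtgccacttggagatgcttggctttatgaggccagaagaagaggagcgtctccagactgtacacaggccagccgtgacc

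Scnn1b: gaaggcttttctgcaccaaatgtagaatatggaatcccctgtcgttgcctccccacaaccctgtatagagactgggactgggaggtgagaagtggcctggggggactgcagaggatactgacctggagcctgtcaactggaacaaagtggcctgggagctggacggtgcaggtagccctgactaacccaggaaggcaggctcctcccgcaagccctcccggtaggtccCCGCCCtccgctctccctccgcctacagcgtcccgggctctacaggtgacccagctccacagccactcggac

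GC boxes were in 7 of the 11 windows, from all 6 genes, and in 35.7% of all windows. TATAAA was in 2 windows, both of Sgk1, against 13.6% of all windows, and the grainyhead element AACCNGGTT was in 0 of 11 against 0.271%. A match of letters is a description and was not tested as a binding site. The reference is not the CD-1 strain of the embryos.

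The arrays were alike in the number of probes detected, 19397 to 20290 on each (42.8 to 44.8%), and replicates of a group correlated at 0.981 to 0.993 across kept probes. The single Pkd1 probe was detected on all 12 arrays and read 6.35 to 6.82 in WT and 7.22 to 7.79 in mutants at E14.5, and 6.79 to 7.59 in WT and 7.61 to 7.83 in mutants at E17.5, with the higher readings in the mutants and no call (adjusted p = 0.761 and 0.141). Its place relative to the deleted part is not given in the sources used here, so it does not check the labels. Xist was detected on a single array per genotype at the younger age and on 0 of the 6 older arrays, so the sexes are not balanced between the ages. E17.5 WT replicate 2 stood apart in liver markers, with a mean log2 intensity of 12.52 over 5 genes against 7.85 and 8.91 in the other WT arrays. The mutants of that age read 7.03 to 7.41 there. At E14.5, WT replicate 34 read highest of its group in all 12 kept probes described here. At E17.5, WT replicate 41 read highest of its group in 9 of the 12, and its median deposited intensity, 10.77, was the lowest of all arrays.

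With age the genes rose nearly as a block in both genotypes, while no probe was called between the genotypes. From E14.5 to E17.5, 11 of the 12 probes rose in WT kidneys, where 18.2% of all kept probes rose and 25% fell. In mutants 10 of the 12 rose, against 19.6% of all kept probes rising and 24% falling. Counted by the brightest probe of each gene, 8 of 8 genes rose in WT and 7 of 8 in mutants, the exception being Hsd11b2. These counts include Scnn1a, which passed the detection filter through its E17.5 arrays alone. The median log2 fold change over the 12 probes was 1.64 in WT and 1.42 in mutants, beside medians of -0.08 and -0.05 over all kept probes. Of the 12 probes 0 were called between mutant and WT at E14.5 or at E17.5, or in the test of whether the genotype difference changed with age. At an unadjusted p under 0.05 these comparisons held 1, 4 and 2 of the 12, where the shares over all kept probes were 3%, 19.6% and 10.4%. At E14.5 the genotypes overlapped for each of the 12 probes, while 8.72% of all kept probes had groups apart. Calls over all kept probes were 0.0465% at E14.5, 2.6% at E17.5 and 0.167% in the last test.

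**Figure D1:**
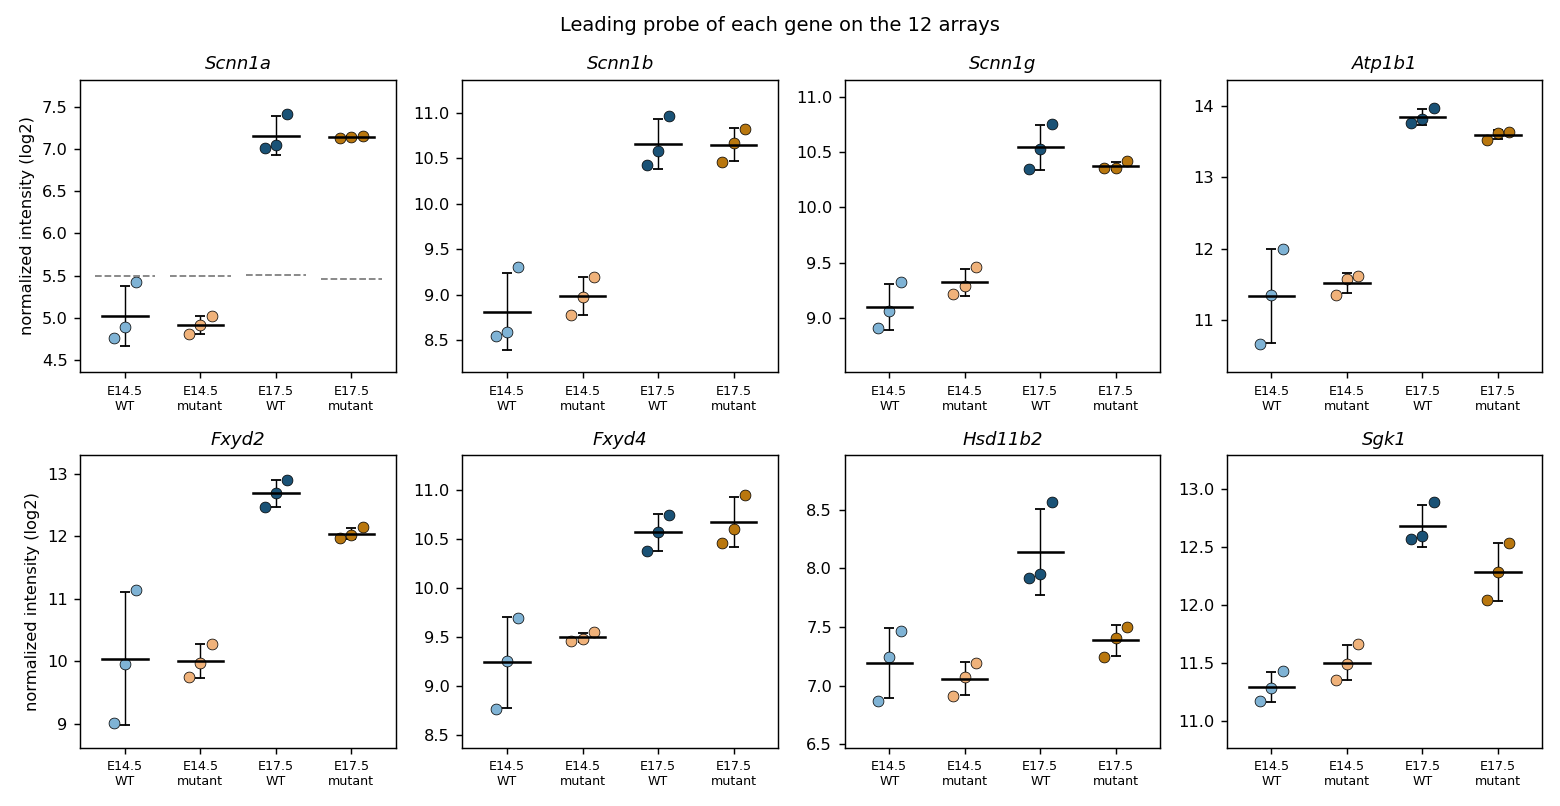
Log2 normalized intensity (vertical axis) of the brightest probe of 8 genes on each of 12 arrays, by group, with group means (bars) and SD (whiskers), each panel on its own scale. Grey dashes, seen where a panel reaches down to it, are the mean detection level, above which negative control beads rarely read. All E17.5 arrays lie above all E14.5 arrays except for Hsd11b2, where mutants at E17.5 reach from 7.25 to 7.50.

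The plot of intensities by array shows the step between ages as wider than the scatter within groups in 7 panels. In WT the ages did not overlap for 12 of 12 probes (52.5% of all kept probes) and in mutants for 11 of 12 (56.3%), with Scnn1a counted in both. E14.5 WT was the most scattered group in 6 of the 8 panels, with replicate 34 at its top.

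Of the sodium channel subunits, Scnn1a crossed from undetected to detected with age and Scnn1b and Scnn1g rose from levels already measurable at E14.5. Scnn1a, the alpha subunit on which a conducting channel depends, was measured by 1 probe. Younger WT kidneys read 5.43, 4.89 and 4.76 and younger mutants 5.02, 4.92 and 4.81. Older WT kidneys read 7.01, 7.04 and 7.42 and older mutants 7.13, 7.16 and 7.14. It was detected on 0 of the 6 younger and on 6 of the 6 older arrays, so it passed the detection filter through E17.5 alone. The ages did not overlap, but its rise with age is not independent of that filter. In WT kidneys Scnn1a rose at least 3.17-fold, and in mutants the bound was at least 3.14-fold. These bounds set the E17.5 mean against the mean detection level of the E14.5 arrays, since the younger groups have no measured level. The bounds themselves carry no test. The fitted log2 fold changes, which use the undetected E14.5 readings, were 2.13 in WT (adjusted p = 4.43e-06) and 2.23 in mutants (adjusted p = 4.60e-06). They move with the background treatment, and in the authors' value table they were 4.51 and 4.21.

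Scnn1b encodes the beta subunit. Its probe gave 9.30, 8.55 and 8.59 on the E14.5 WT arrays and 9.19, 8.97 and 8.78 on the E14.5 mutant arrays. The readings of the E17.5 kidneys were 10.43, 10.58 and 10.96 (WT) and 10.82, 10.67 and 10.46 (mutant), so that the 6 older arrays lay above the 6 younger and the genotypes overlapped at both ages. The log2 fold change with age was 1.84 in WT (SE 0.21, adjusted p = 4.55e-05) and 1.67 in mutants (SE 0.21, adjusted p = 9.02e-05).

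Scnn1g, the gamma subunit gene and neighbour of Scnn1b, stood at 9.32, 8.91 and 9.06 in E14.5 WT and at 9.46, 9.22 and 9.29 in E14.5 mutants. By E17.5 the WT arrays had reached 10.75, 10.53 and 10.34 and the mutant arrays 10.35, 10.35 and 10.41. All older arrays again lay above all younger, and the 3 mutant arrays at E17.5 lay within the WT range. The rise was 1.44 in WT (SE 0.13, adjusted p = 1.11e-05) and 1.05 in mutants (SE 0.13, adjusted p = 8.66e-05). The difference between these rises, -0.39, was not called (unadjusted p = 0.0542, adjusted p = 0.488).

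At E17.5 the channel genes overlapped between the genotypes. The difference, mutant minus WT, was -0.02 for Scnn1a (95% confidence interval -0.37 to 0.34), -0.01 for Scnn1b (-0.46 to 0.45) and -0.17 for Scnn1g (-0.45 to 0.12). These intervals allow a mutant level up to 0.46 lower or 0.45 higher on the log2 scale. At E14.5 the difference was -0.11, 0.17 and 0.22 in the same order, with overlapping arrays for each gene.

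Among the pump genes Fxyd2 and Atp1b1 rose the most with age. Atp1b1, the glycosylated subunit that carries the pump to the membrane, was bright from the start, with E14.5 readings of 11.99, 10.67 and 11.35 (WT) and 11.62, 11.58 and 11.36 (mutant). Its E17.5 readings were 13.76, 13.82 and 13.97 (WT) and 13.53, 13.64 and 13.62 (mutant). E14.5 WT replicate 57 was lowest and replicate 34 highest among the younger arrays, and all older arrays lay above both. The rise was 2.51 in WT (SE 0.24, adjusted p = 1.79e-05), or 5.70-fold, and 2.08 in mutants (SE 0.24, adjusted p = 6.21e-05), or 4.23-fold. The 3 mutant arrays at E17.5 lay below the 3 WT arrays, by 0.25 on average (SE 0.24, adjusted p = 0.607), and the difference was not called.

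Fxyd2, the gamma subunit of the pump, was measured by 3 probes. ILMN_1242135 is annotated to another RefSeq transcript of the gene than ILMN_1251018 and ILMN_2616328. ILMN_1242135, the brightest, read 11.15, 9.01 and 9.96 in younger WT kidneys and 10.28, 9.74 and 9.97 in younger mutants. The older kidneys read 12.90, 12.47 and 12.70 (WT) and 12.14, 11.97 and 12.01 (mutant). In the E14.5 WT group replicate 34 stood highest and replicate 57 lowest, a gap wider than that between any other replicates of this probe. The rise was 2.65 in WT (SE 0.39, adjusted p = 2.73e-04) and 2.04 in mutants (SE 0.39, adjusted p = 0.00135).

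ILMN_1251018 rose by 3.34 in WT (adjusted p = 1.05e-04) and 2.78 in mutants (adjusted p = 3.35e-04). ILMN_2616328 read 7.86, 5.05 and 5.96 in E14.5 WT, where the array at 5.05 was not detected, and 6.94, 6.02 and 6.15 in E14.5 mutants. Its E17.5 values were 10.65, 10.28 and 10.98 (WT) and 9.57, 9.22 and 9.36 (mutant), with every mutant array below every WT array. Its rise was 4.35 in WT (SE 0.53, adjusted p = 8.41e-05) and 3.01 in mutants (SE 0.53, adjusted p = 8.95e-04). The 3 probes thus gave 1 direction with age and different sizes. The WT rise of ILMN_2616328 was 5.13 without replicate 34 and 3.73 without replicate 57, and that of ILMN_1251018 was 2.73 without replicate 57, each over 1.5 times apart from the full value as a fold.

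Fxyd4, which marks the collecting duct among the FXYD proteins, overlapped between the genotypes at both ages. Its brighter probe, ILMN_2670751, read 9.70, 8.77 and 9.26 in younger WT kidneys, while the younger mutants read 9.55, 9.46 and 9.48. Older WT arrays gave 10.38, 10.58 and 10.75 and older mutant arrays 10.95, 10.61 and 10.46, above all younger ones. The rise was 1.33 in WT (SE 0.20, adjusted p = 3.71e-04) and 1.18 in mutants (SE 0.20, adjusted p = 7.58e-04). ILMN_1215552 gave 1.34 and 1.06. This probe was the only member probe with an unadjusted p under 0.05 between genotypes at E14.5, 0.44 higher in mutants (unadjusted p = 0.0444, adjusted p = 0.9997), with overlapping arrays, and at E17.5 the difference was 0.16 (adjusted p = 0.700).

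The hormone signal genes behaved unlike each other. Nr3c2, the mineralocorticoid receptor gene, has 2 probes, and both were detected on 0 of the 12 arrays, with lowest detection p-values of 0.244 and 0.752. All their readings lay between 4.49 and 4.84, under the mean detection levels of 5.46 to 5.50 in the 4 groups. This limits what these probes can show and does not show the receptor to be absent.

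Hsd11b2, the enzyme that keeps glucocorticoids off the receptor, was measured by 2 probes. ILMN_1229516 started from 7.46, 7.24 and 6.87 (E14.5 WT) and 7.08, 7.19 and 6.91 (E14.5 mutant). At the later age the WT arrays read 7.95, 7.92 and 8.56 and the mutant arrays 7.25, 7.50 and 7.41. All E17.5 WT arrays lay above the other 9 arrays, while the E17.5 mutants overlapped the younger WT kidneys. The level rose by 0.95 in WT (SE 0.19, adjusted p = 0.00176) and the change in mutants was 0.33 (SE 0.19, adjusted p = 0.179).

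ILMN_2731265, the dimmer Hsd11b2 probe, gave E14.5 readings of 7.49, 7.45 and 6.80 (WT) and 7.03, 7.18 and 6.72 (mutant), and E17.5 readings of 7.81, 7.59 and 8.07 (WT) and 6.39, 7.24 and 7.14 (mutant). E17.5 mutant replicate 12 read lowest of all 12 arrays. This probe was not called with age in either genotype, with 0.57 in WT (adjusted p = 0.0788) and -0.06 in mutants (adjusted p = 0.869). It was the only probe of the 12 that missed the call in WT.

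Sgk1, the aldosterone-induced kinase, has 1 probe. In younger kidneys it read 11.43, 11.17 and 11.29 (WT) and 11.66, 11.36 and 11.49 (mutant). In older kidneys it read 12.89, 12.57 and 12.59 (WT) and 12.04, 12.29 and 12.54 (mutant). The older arrays lay above the younger in both genotypes, and all mutant arrays lay below all WT arrays at E17.5. The rise was 1.39 in WT (SE 0.14, adjusted p = 2.64e-05), or 2.62-fold, and 0.78 in mutants (SE 0.14, adjusted p = 0.00109), or 1.72-fold.

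**Figure D2:**
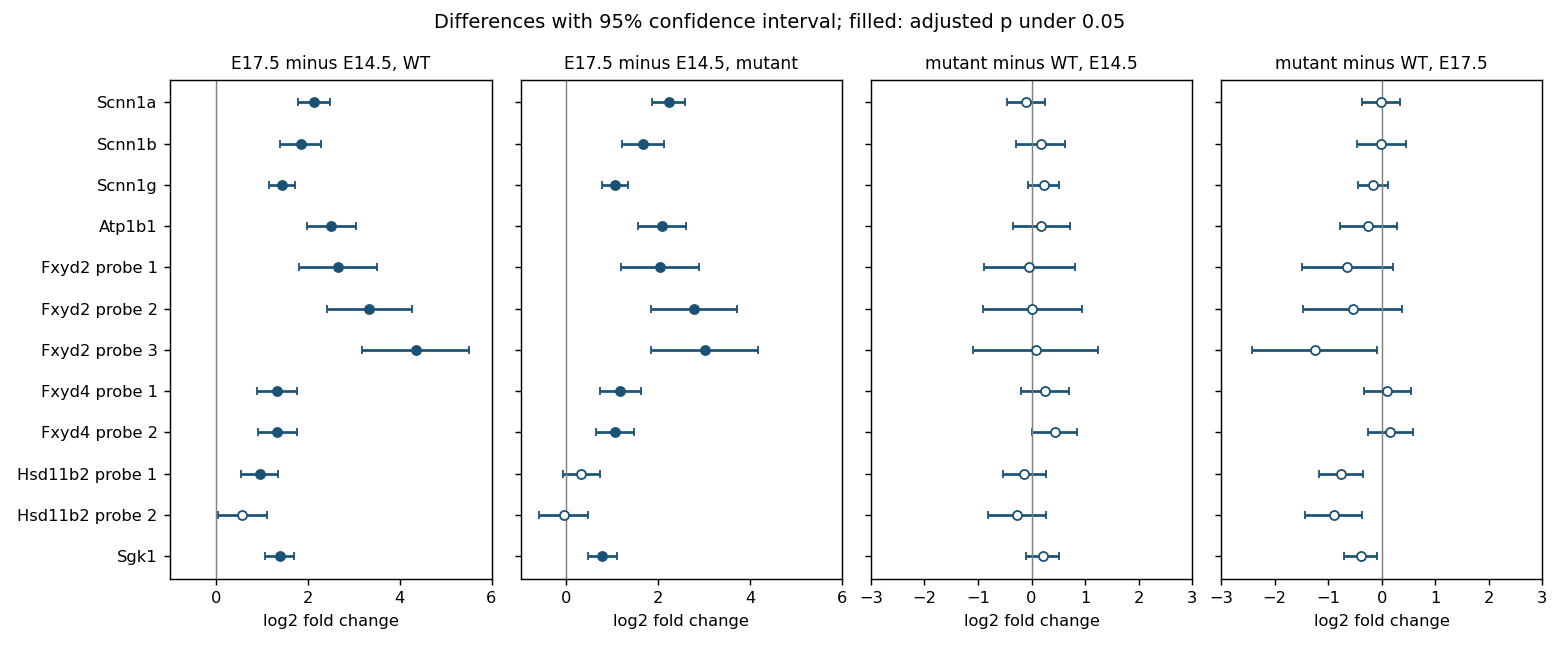
Log2 fold change (horizontal axis) with 95% confidence interval for the 12 kept probes in 4 comparisons, filled where the adjusted p is under 0.05. Fxyd2 probes 1 to 3 are ILMN_1242135, ILMN_1251018 and ILMN_2616328, Fxyd4 probes 1 and 2 are ILMN_2670751 and ILMN_1215552, and Hsd11b2 probes 1 and 2 are ILMN_1229516 and ILMN_2731265. Points with age are filled for 11 probes in WT and 10 in mutants, and none is filled between genotypes.

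At E17.5 the mutants leaned lower in Hsd11b2, Fxyd2, Sgk1 and Atp1b1, short of the call. The difference was below 0 for 10 of the 12 probes, and for 7 of 12 (58.3%) no mutant array reached the WT range, where 23.5% of all kept probes had groups apart in either direction. Those 7 probes belong to 4 of the 8 genes, Atp1b1 with 1, Fxyd2 with 3, Hsd11b2 with 2 and Sgk1 with 1, and they share the same 6 arrays. In the plot of fold changes, 4 of the 12 intervals at E17.5 end below 0, those of ILMN_2616328 of Fxyd2, both Hsd11b2 probes and Sgk1. An unadjusted p under 0.05 at that age, in either direction, was reached by 19.6% of all kept probes.

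Hsd11b2 came nearest to the threshold. ILMN_1229516 was 1.69-fold lower in mutants, with a log2 fold change of -0.76 (SE 0.19, 95% confidence interval -1.17 to -0.35, unadjusted p = 0.00171, adjusted p = 0.0572). ILMN_2731265 gave -0.90 (SE 0.25, adjusted p = 0.0766). The Fxyd2 probes gave -0.64, -0.55 and -1.26 (adjusted p = 0.386, 0.510 and 0.223). Sgk1 gave -0.40 (SE 0.14, unadjusted p = 0.0179, adjusted p = 0.162).

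Leaving out E14.5 WT replicate 34, which changes only the shared estimate of spread, ended with 2 of the 12 probes called at E17.5, both lower, namely ILMN_2616328 of Fxyd2 (adjusted p = 0.0443) and ILMN_1229516 of Hsd11b2 (adjusted p = 0.0487). Without E17.5 WT replicate 2, the array with high liver markers, 0 were called, and ILMN_1229516 stood at -0.85 (adjusted p = 0.0849), ILMN_2616328 at -1.25 (adjusted p = 0.350) and Sgk1 at -0.29 (adjusted p = 0.367). Over the fits without 1 array, the difference of ILMN_1229516 was smallest without E17.5 WT replicate 41, at -0.55.

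**Figure D3:**
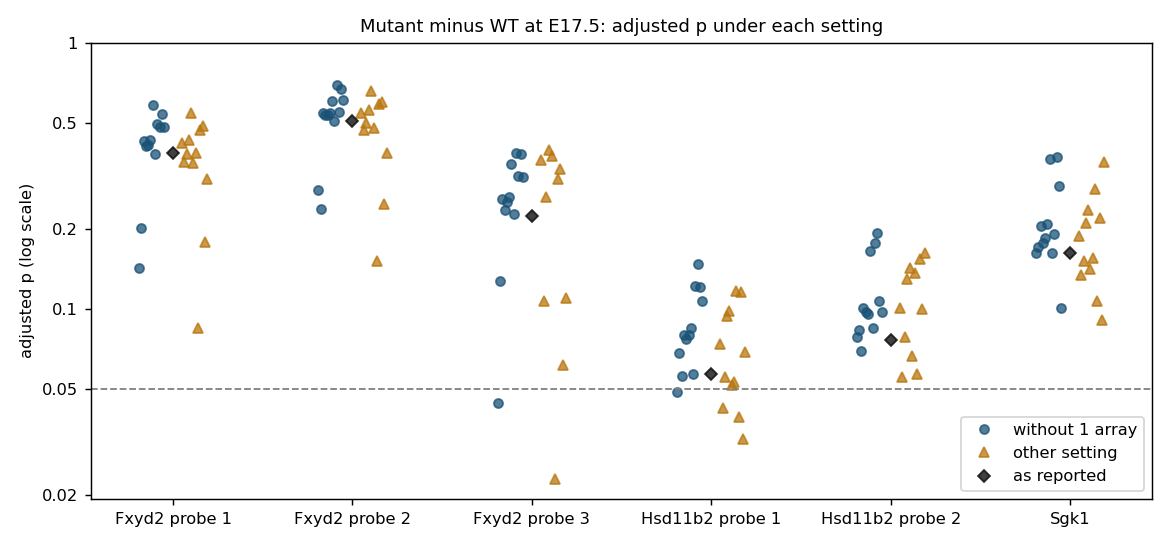
Adjusted p (vertical axis, log scale) for mutant minus WT at E17.5 under every setting tried, for the probes of Fxyd2, Hsd11b2 and Sgk1, numbered as in the plot of fold changes. Circles leave out 1 array, triangles change another setting, diamonds are the values as reported, and the dashed line is 0.05. Hsd11b2 probe 1 runs from 0.0326 to 0.148 and Fxyd2 probe 3 from 0.0230 to 0.396.

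The plot of adjusted p across settings shows that only ILMN_1229516 and ILMN_2616328 went under the threshold in any setting, while Sgk1 stayed between 0.0907 and 0.372. The test of whether the genotype difference changed with age gave -0.60 for Sgk1 (unadjusted p = 0.0121, adjusted p = 0.365). For ILMN_1229516 of Hsd11b2 it gave -0.62 (unadjusted p = 0.0367, adjusted p = 0.458). So the mutant rise of these genes with age was not shown to be smaller than the WT rise. The age comparisons and the genotype comparisons share arrays and are not independent of each other.

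Markers of nephron segments moved beside these genes. A rise with age was not particular to the sodium transport genes. In WT, 8 of 8 kept proximal tubule markers rose (median log2 fold change 3.71), 3 of 4 of the loop of Henle (2.64) and 3 of 3 of podocytes (1.30). In mutants these were 6 of 8 (2.42), 3 of 4 (2.03) and 3 of 3 (1.27). Of 5 nephron progenitor markers, 4 fell in WT and 5 in mutants. In whole kidneys fewer cells of a type and less RNA per cell cannot be told apart. Of the 8 collecting duct markers 7 were kept (Avpr2 was detected on 0 arrays), and 6 rose with age in WT and 7 in mutants. In mutants the call was lost without 1 array in 8 of 12 fits for Gata3 and in 4 for Krt19. The mean log2 intensity of the 7 kept markers per array ran from 7.18 to 8.00 at E14.5 and from 9.35 to 9.62 at E17.5. Of the 7, 0 were called between genotypes at E17.5. Replicate 34 was again the highest E14.5 array, at 8.00. Whether this list accounts for the rise of the channel and pump genes was not tested.

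At E17.5, 4 of the 8 kept proximal tubule markers were lower in mutants, namely Miox, Kap, G6pc and Dpep1, with log2 fold changes of -4.19, -4.28, -2.94 and -2.56. In the same order they were detected on 1, 2, 1 and 3 of the 3 mutant arrays and each on 3 of the 3 WT arrays of that age. All 4 were detected on 0 of the 6 E14.5 arrays, so they passed the detection filter through E17.5 alone. Miox and G6pc averaged 5.42 and 5.54 in E17.5 mutants, near the detection level. Kap spread widely in mutants (4.98 to 7.59), and its difference was -3.56 without replicate 40. The other 4 kept markers were not called at E17.5. Of these, Lrp2 averaged 13.33 in WT and 13.34 in mutants, and Cubn 9.47 and 9.40. Slc34a1 averaged 13.62 and 12.92, and Slc22a6 11.40 and 10.59. The mean over all 8 kept markers ran from 10.40 to 10.93 in E17.5 WT and from 8.44 to 8.87 in E17.5 mutants, beside 5.96 to 7.18 over the E14.5 arrays. Slc5a2, a defining transporter of that segment, was detected on 2 of the 12 arrays, both E17.5 WT, and was not kept. Of 4 kept intercalated cell markers, 3 were lower in mutants (Foxi1, Slc4a1 and Slc26a4), with list means of 7.43 to 7.93 in WT and 6.77 to 6.92 in mutants. Slc4a1 already averaged 9.62 in WT and 9.38 in mutants at E14.5, where Foxi1 was detected on 0 arrays. Its reading therefore cannot be assigned to intercalated cells, and in E17.5 WT it spread from 9.80 to 11.40. Umod of the loop of Henle (-1.59) and Pvalb of the distal tubule (-1.48) were also lower in mutants at E17.5, as 1 of 4 and 1 of 6 kept markers. Leaving out 1 array ended the call of Foxi1 in 10 of 12 fits, of Umod in 8, of Slc26a4 in 5 and of Slc4a1 in 2, whereas the 4 proximal tubule markers and Pvalb stayed called in all 12. The part of these segments in the lower readings of Fxyd2, Hsd11b2, Sgk1 and Atp1b1 was not tested.

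**Figure D4:**
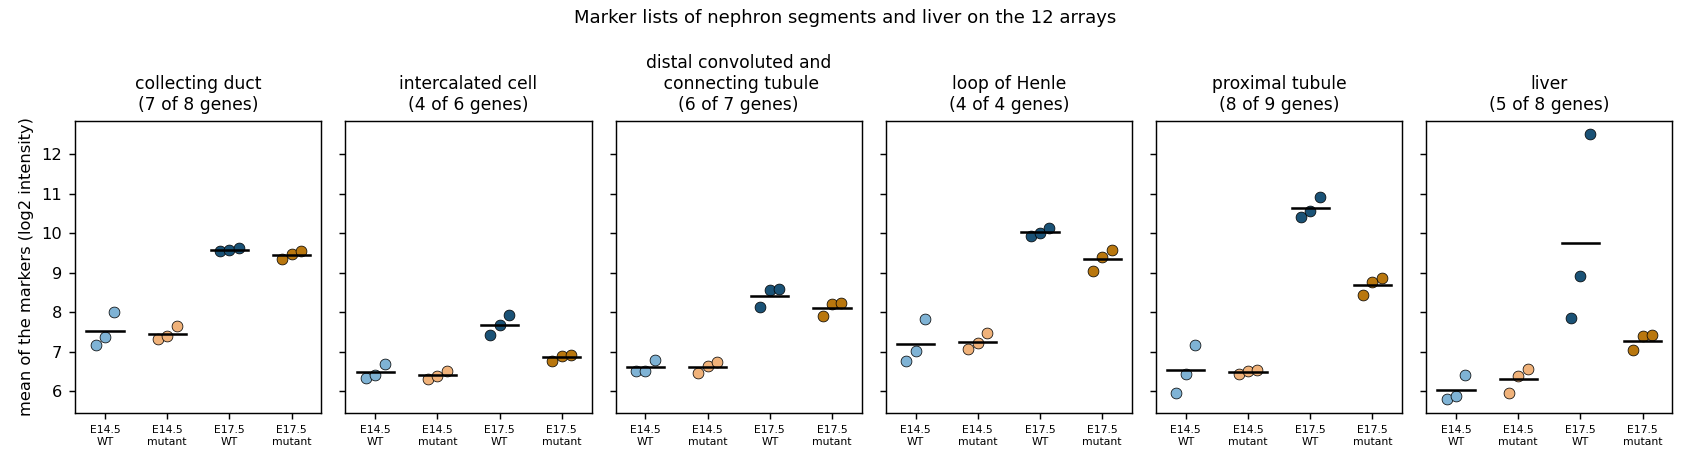
Mean log2 intensity of marker lists (vertical axis) on each of 12 arrays by group, with group means as bars. The number of kept genes of each list is in the panel titles. Collecting duct means at E17.5 lie between 9.35 and 9.62 in both genotypes, while proximal tubule means lie between 10.40 and 10.93 in WT and between 8.44 and 8.87 in mutants.

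The plot of marker lists sets the collecting duct, where the genotypes overlapped narrowly at E17.5, beside the proximal tubule, where WT and mutants lie apart. That overlap rests on mutant replicate 40 at 9.555 against WT replicate 2 at 9.547, and the other mutant arrays lay below all WT arrays. The collecting duct mean covers opposite leanings at E17.5, none of them called. Every mutant array read below every WT array for Aqp2 and Aqp3, where 23.5% of all kept probes had groups apart. Aqp2 averaged 9.93 in WT and 9.42 in mutants, and Aqp3 10.44 and 9.84. Gata3 and Elf5 also averaged lower in mutants, while Aqp4, Krt7 and Krt19 averaged higher. Loop of Henle, intercalated cell and liver means lay apart between the genotypes at E17.5, while distal convoluted and connecting tubule means overlapped. Of 11 adrenal markers, 7 had no kept probe, among them Star, Cyp21a1, Hsd3b1 and Cyp11b1 of steroid synthesis. The 4 kept ones had list means of 5.32 to 6.01 on all 12 arrays. Of these Mc2r, the corticotropin receptor gene, was detected on 6 of the 6 younger arrays and 0 of the 6 older, and was called lower with age in WT and mutants (adjusted p = 2.44e-05 and 2.32e-04), though not in mutants in the authors' value table (adjusted p = 0.471). Pnmt, of adrenaline synthesis, fell by 0.40 in WT (adjusted p = 0.00953), a call lost without replicates 34 and 2 together (adjusted p = 0.0718), and in mutants the change was -0.03 (adjusted p = 0.824). The part of adrenal tissue in the readings of the sodium transport genes was not tested.

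Other genes of the pathway were read from lists, by the brightest probe of each gene. Of 11 regulators of the channel 8 rose with age in WT and 9 in mutants, with 0 falling and 0 called between genotypes at E17.5. Kcnj1, the potassium channel through which the same cells secrete potassium, rose by 3.85 in WT and 3.08 in mutants (adjusted p = 3.29e-05 and 1.44e-04). At E14.5 it was detected on 2 of the 3 WT arrays and 3 of the 3 mutant arrays. Sgk2, a relative of Sgk1, rose by 2.29 and 1.65 (adjusted p = 4.20e-04 and 0.00315).

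Among other pump genes 6 of 11 listed were tested. Of the 6, 2 rose in WT, Atp1b2 (0.93, adjusted p = 9.69e-04) and Fxyd5 (0.75, adjusted p = 0.00240), and in mutants the same pair rose, at 1.25 and 0.47 (adjusted p = 1.41e-04 and 0.0278), and Fxyd6, named after its values were seen, fell by 0.45 (adjusted p = 0.00301). The rise of Fxyd5 in mutants was not called in 3 of the 12 fits without 1 array. The WNK kinase pathway, which sets sodium chloride uptake upstream of the channel, had 5 of 7 genes rising in WT and 5 in mutants, with Wnk1 called in WT alone and Oxsr1 in mutants alone. A change of the genotype difference with age was not called for either (adjusted p = 0.710 and 0.652). In mutants the call was lost without 1 array in 5 of 12 fits for Oxsr1 and in 4 for Stk39. The rises were led in WT by Klhl3 (1.12, adjusted p = 1.67e-04) and Wnk4 (1.10, adjusted p = 6.76e-05). Of both lists 0 genes were called between genotypes at E17.5.

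Partners of the steroid receptors split, with 2 of 6 tested rising and 2 falling in WT, and 3 rising and 1 falling in mutants. Those that fell, named after their values were seen, were the chaperone genes Hsp90aa1 in both genotypes (-0.67 in each, adjusted p = 0.00306 in WT and 0.00283 in mutants) and Fkbp4 in WT (-0.35, adjusted p = 0.0405), and Fkbp4 lost its call in 8 of the 12 fits without 1 array. Fkbp5, the gene called higher in mutants alone (0.29, adjusted p = 0.0453), lost its call in 10 of 12. Hsd11b1, which regenerates active glucocorticoid and so works against Hsd11b2, rose by 2.22 in WT (adjusted p = 9.89e-04) and 2.91 in mutants (adjusted p = 1.62e-04). H6pd, which supplies its cofactor, rose by 1.63 and 1.84 (adjusted p = 2.05e-05 and 1.19e-05). Of 6 tested genes that steroid hormones induce, 5 rose in WT and 4 in mutants. In that list Ndrg2, known to be induced early by aldosterone in the rat collecting duct, was lower in mutants at E17.5, at 9.12 ± 0.07 against 9.76 ± 0.09 in WT (SD, n = 3 each). The log2 fold change was -0.65 (SE 0.15, adjusted p = 0.0467). Ndrg2 was the only gene of the 5 lists called between genotypes at E17.5, where 2.6% of all kept probes were called. This call was lost in 10 of the 12 fits that left out 1 array, with adjusted p up to 0.145, and in 7 of 13 other settings, while the fold change stayed between -0.73 and -0.61.

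The genes whose profiles lay nearest to each member were found over the 12 arrays among 11608 named genes, by the root mean square difference of mean-centred log2 intensities. Scnn1b lay nearest to Usp2 (0.117), a deubiquitinase from the list of channel regulators, and then to Tmprss2 (0.125), a membrane protease, and Cox7a1 (0.135). Scnn1g lay nearest to D630004K10Rik (0.0666), then to Cdh16 (0.104), the kidney cadherin, and Hopx (0.114). For Scnn1a they were Rcan2 (0.125), Pth1r (0.157) and Slco2a1 (0.160).

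The nearest profile to Atp1b1 was that of Itgb6 (0.0885), an integrin subunit, followed by Slc1a1 (0.158) and Susd2 (0.168). Fxyd2 lay nearest to Cideb (0.167), Bsnd (0.187), a chloride channel subunit, and Pdzk1 (0.196), a scaffold of the proximal tubule brush border. Fxyd4 lay nearest to Dpp4 (0.130), Slc25a42 (0.140) and Mvp (0.141). The nearest to Sgk1 were Glb1l (0.128), Atp6v1a (0.140) and Arhgap24 (0.149). Hsd11b2, the member with the smallest spread over the arrays (SD 0.49), had nearest genes no closer than 0.190 (Mgat3), 0.194 (Syne1) and 0.199 (Gaa). These distances describe shape over 12 arrays that share 4 group means and carry no test.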

How the data were processed

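Total RNA of 12 kidney pairs was hybridised to Illumina whole-genome mouse BeadChip arrays. The authors deposited BeadStudio bead summary intensities that were not normalized between arrays, and 31.3 to 34.0% of each array's values are at or below 0, so a background had been subtracted. Detection p-values against negative control beads were deposited with the intensities. They also deposited their background-subtracted, quantile normalized intensity table, used here as an alternative. The submitters' processing notes name limma without a version. There were 0 data columns without a sample.

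In R 4.3.3 with limma 3.58.1, background was corrected by the normexp model with the noise taken from the detection p-values, with an offset of 16, followed by quantile normalization and log2. The probes kept were those with a detection p under 0.05 on 3 or more arrays. A linear model of 4 group means over all 12 arrays, with empirical Bayes moderation, gave 5 comparisons, adjusted by Benjamini-Hochberg over 21526 probes and called under 0.05. Symbols came from GEO's platform annotation: 34885 probes had 1 symbol, 18 several and 10378 none. For a group detected on none of its arrays the fold is a bound against the detection level. The number of arrays limits the precision. The procedure was tested on simulated data.

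Named were all kept probes of the 9 genes. From each of the 5 pathway lists the text names the genes called for genotype at E17.5 or in the interaction, otherwise the 2 with the largest called change with age in WT, and for each gene the 3 nearest profiles. Defining markers, Pkd1 and Xist are named besides. The members, lists and tests were chosen with earlier results of these data known. Alternatives changed the background correction, the offset, the normalization, the filter, the variance model, the weights, the arrays in the fit and the threshold, and left out single arrays.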

Additional observations from a re-analysis of the deposited data

How the results depend on the processing

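Counts of the 12 probes called for genotype at E17.5 moved from 0 to 1 with an offset of 50 (Hsd11b2 probe ILMN_1229516, -0.66, adjusted p = 0.0424), with trended and robust variances (the same probe, adjusted p = 0.0394), with array weights (the same probe, -0.51, adjusted p = 0.0326), with only the 6 arrays compared in the fit (Fxyd2 probe ILMN_2616328, adjusted p = 0.0230) and at the threshold of the study's methods, a 2-fold change with an unadjusted p (ILMN_2616328). Leaving out single arrays gave 0 to 2, with 2 without E14.5 WT replicate 34 and 0 in all other cases. With replicates 34 and 2 both left out, chosen after seeing the data, the count was 0. The cause of these moves was not tested. No direction of a called value reversed. The counts for age stayed at 11 of 12 probes in WT and 10 of 12 in mutants under 8 of the settings, and leaving out single arrays gave 11 to 12 and 10. They were 12 and 11 with array weights, 10 and 9 at the study's threshold, 9 and 8 of the 10 probes detected on all 12 arrays, and 8 and 7 of 8 with 1 probe per gene. Without E17.5 mutant replicate 12, ILMN_2731265 of Hsd11b2 was called with age in WT (adjusted p = 0.0359). Array weights called Hsd11b2 probe ILMN_1229516 with age in mutants (0.43, adjusted p = 0.0221). The counts at E14.5 and in the interaction were 0 under each setting that gave one.

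Over all kept probes, cyclic loess turned the split of calls with age in WT from 3913 higher and 5378 lower to 4823 higher and 4138 lower. In mutants 4220 higher and 5172 lower became 4950 and 4372. At E17.5, 286 higher and 273 lower in mutants became 178 and 241, and 161 and 80 with the values the authors normalized. The median of all probes lay at -0.13 with age in WT in the authors' table and within 0.1 of 0 otherwise. No paired analysis was possible because no array is tied to a litter. Blocking on the BeadChip was not run, since which arrays shared a chip is not given in the sources used here, so a chip effect and the groups cannot be told apart. Scnn1a at E14.5 and Nr3c2 at both ages were limited by background.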
